A study of Mus musculus with 28 samples.

Results

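The genes described here are 10 genes of ovarian steroid synthesis, followed through wild-type (WT) and Chek2-/- mouse ovaries 6 h after 0.5 Gy of ionizing radiation (IR) or sham treatment. The members were chosen by their role, as enzymes, a cholesterol carrier, transcription factors and a receptor of the pathway. The rule used no measured value, though earlier results of these data were known when the choice was made. All 10 were present in the bulk table of 44674 genes and among the 23623 genes kept in single cells, and all 10 passed the filter on low counts that left 26790 bulk genes for testing. The members are Star, Cyp11a1, Hsd3b1, Cyp17a1, Cyp19a1, Hsd17b1, Hsd17b7, Nr5a1, Nr5a2 and Esr2. In the bulk experiment the paired ovaries of 1 female of 7 to 9 days made 1 library, with 6 libraries for each of 4 groups, which were WT non-IR, WT IR, Chek2-/- non-IR and Chek2-/- IR. WT females were C57BL/6J, and mutant females carried the Chek2tm1b(EUCOMM)Hmgu allele in the whole body. Whether both genotypes came from the same litters was not stated in the labels or methods, so a difference between genotypes cannot be told apart from other differences between the lines. In the single-cell experiment each of the same 4 conditions had 1 library from the pooled ovaries of 4 females of 7 days, and no test between those libraries was possible.

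Steroid hormones are made from cholesterol in a fixed order. Star moves cholesterol into the mitochondrion, Cyp11a1 cleaves its side chain to give pregnenolone, Hsd3b1 turns pregnenolone into progesterone, and Cyp17a1 leads on to androgens. Cyp19a1 (aromatase) and Hsd17b1 then give estradiol. In the adult ovary theca cells around growing follicles make androgens under luteinizing hormone, and granulosa cells turn them into estrogens under follicle-stimulating hormone. The transcription factors Nr5a1 (SF-1) and Nr5a2 (LRH-1) bind the promoters of many of these genes, and Esr2 is the estrogen receptor of granulosa cells. Hsd17b7 acts on steroids and also takes part in cholesterol synthesis. In the first postnatal week most follicles are primordial, and few have begun to grow.

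The genes lie apart in the genome, on 8 chromosomes of the GRCm38 annotation. They are Star (ENSMUSG00000031574, chr8:25806555-25815982), Cyp11a1 (ENSMUSG00000032323, chr9:58006411-58027023), Hsd3b1 (ENSMUSG00000027871, chr3:98852194-98859794), Cyp17a1 (ENSMUSG00000003555, chr19:46667165-46673172) and Cyp19a1 (ENSMUSG00000032274, chr9:54165937-54268110). The others are Hsd17b1 (ENSMUSG00000019301, chr11:101078411-101080527), Hsd17b7 (ENSMUSG00000026675, chr1:169949535-169969241), Nr5a1 (ENSMUSG00000026751, chr2:38692656-38714542), Nr5a2 (ENSMUSG00000026398, chr1:136842571-136960448) and Esr2 (ENSMUSG00000021055, chr12:76120419-76177259). Promoter windows of 300 bases, from 250 bases before to 50 after a start site, were searched on both strands for CAAGGNCA, the element to which Nr5a1 and Nr5a2 bind. RefSeq windows (GRCm38.p6) were found for 6 members, 10 windows in all, namely Cyp11a1, Hsd3b1, Cyp19a1, Hsd17b7, Nr5a2 and Esr2. The element was in 1 of these 10 windows and in 2204 of all 32851 windows (6.71%). That window belongs to the most distal of the 3 Cyp19a1 starts, and the 30 bases around the match are printed as the single match among the members' windows. They lie at chr9:54268128-54268157 and are shown on the strand of the gene, with the match, which reads in the opposite direction and begins 18 bases after the start, in capitals.
Cyp19a1: ggatgggatgcTGGCCTTGgctgtaggggg
No binding was measured in this study, and Star, Cyp17a1, Hsd17b1 and Nr5a1 are named only.

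Bulk libraries held 17824920 to 32605519 estimated counts, and values are given as counts per 1000000 of the TMM-scaled library size (CPM), a scale without length correction on which different genes are not compared. Chek2 checked the genotypes, at 22.4 CPM in WT and 3.75 CPM in Chek2-/- non-IR ovaries (log2 fold change −2.58, SE 0.10, edgeR adjusted p = 7.45e-15). Cdkn1a, a target of p53, checked the irradiation, rising from 27.6 to 87.9 CPM in WT (1.67, SE 0.13, edgeR adjusted p = 2.48e-09). Chek2-/- replicates 6 of both treatments stood apart from the other 22 libraries on the first principal component (25.9% of the variance). Their summed level of 3 markers of activated granulosa cells was 318 and 309 CPM, against 625 CPM or more elsewhere, and the summed oocyte markers were at 975 and 1105 CPM. Erythroid markers summed to 10445 CPM in Chek2-/- non-IR replicate 5 and to 7047 CPM in Chek2-/- IR replicate 2, and to at most 926 CPM in the others. In single cells 36524 cells were used after filters, with a median of 14352 to 17724.5 molecules (UMIs) per cell and 16 to 36 barcodes shared by any 2 libraries.

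The question of the bulk comparison within a genotype was which genes respond to IR and whether the response needs CHEK2. No member passed the test in WT IR against WT non-IR ovaries, where 2.41% of all genes did (edgeR quasi-likelihood test, adjusted p of at most 0.05). None passed in Chek2-/- ovaries, where 0.0112% of all genes did, and none for the difference between the genotypes in the response, where 1.03% did. At an unadjusted p under 0.05 the counts of members were 1, 0 and 1 of 10, beside 11.4%, 4.40% and 9.14% of all genes. DESeq2 called 1, 0 and 0 members, beside 3.05%, 0.0523% and 1.71% of all genes, and limma-voom called 0 in each, beside 2.43%, 0.0112% and 1.11%. The median log2 fold change of the 10 members was 0.023 in WT and −0.00095 in Chek2-/- ovaries, beside −0.0041 and 0 over all genes. Between the genotypes 1 member, Star, was higher in non-irradiated Chek2-/- ovaries, where 5.34% of all genes were called (3.12% higher and 2.22% lower). In irradiated ovaries no member was called, where 9.84% of all genes were (5.52% higher and 4.32% lower). At an unadjusted p under 0.05 there were 4 and 2 members, beside 21.6% and 23.6% of all genes, and DESeq2 called 2 and 0, beside 2507 and 3216 of 26790 genes. In every comparison of one group with another the 6 libraries of one overlapped the 6 of the other for each member. The share of all genes with such overlap was not counted. In whole ovaries, fewer cells of a type and less RNA per cell cannot be told apart.

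**Figure D1:**
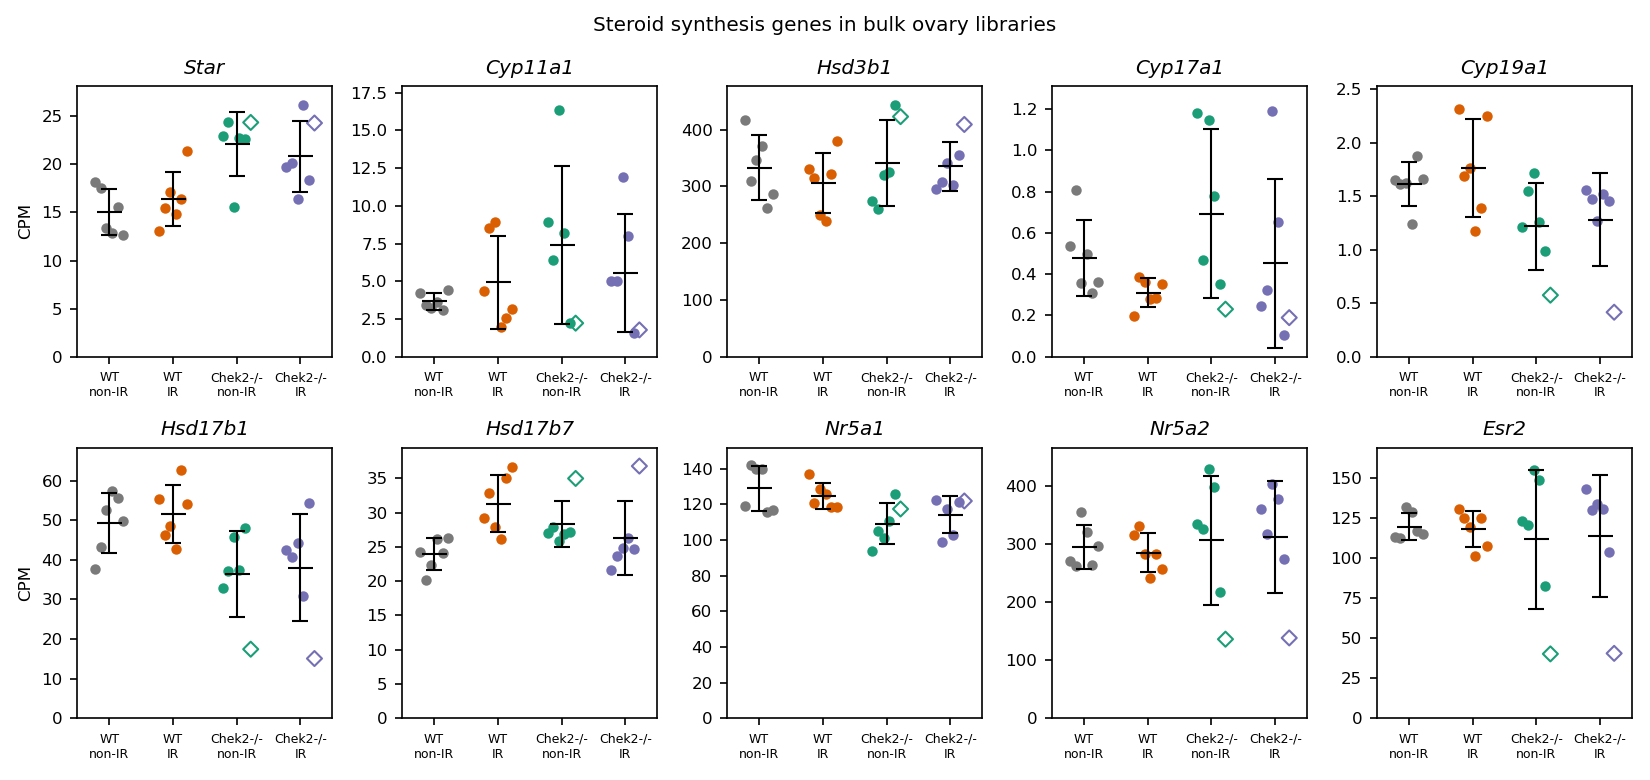
Level of each member (CPM, linear axis from 0) in the 6 bulk libraries of each group, with the mean ± SD in black and Chek2-/- replicates 6 as open diamonds. The Star means are higher in both Chek2-/- groups, the highest Hsd17b7 mean is in WT IR ovaries, and the diamonds are the lowest Chek2-/- points for Hsd17b1, Nr5a2 and Esr2.

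Star, the carrier that admits cholesterol to the pathway, differed with the genotype. In WT non-IR ovaries its lowest, median and highest levels were 12.7, 14.5 and 18.2 CPM, and in Chek2-/- non-IR ovaries 15.6, 22.9 and 24.4 CPM. Of the 6 Chek2-/- libraries 5 lay above every WT library and replicate 3 lay among them. The means were 15.0 ± 2.40 and 22.1 ± 3.31 CPM (SD, n = 6 each), a log2 fold change of 0.56 ± 0.13 (SE, with an edgeR adjusted p of 0.0160). Under IR the levels were 13.1, 15.9 and 21.3 CPM in WT and 16.4, 19.96 and 26.1 CPM in Chek2-/- ovaries. That difference was 0.35 (SE 0.13, edgeR adjusted p = 0.0982), and it passed without WT IR replicate 6 (0.43, edgeR adjusted p = 0.0389). With any other library of these groups left out it did not pass (edgeR adjusted p up to 0.291). IR itself left Star at 0.13 (SE 0.13, edgeR adjusted p = 0.845) in WT.

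Cyp11a1, which opens the pathway proper, varied widely between Chek2-/- libraries. It ran from 3.11 to 4.41 CPM in WT non-IR ovaries and from 2.22 to 16.3 CPM in Chek2-/- non-IR ovaries, with medians of 3.53 and 7.29 CPM. The first 4 Chek2-/- replicates were at 6.41 CPM or more, above all WT non-IR libraries, and replicates 5 and 6 were at 2.22 and 2.23 CPM, below all of them. The log2 fold change was 1.01 ± 0.49 (SE, with an edgeR adjusted p of 0.229). After IR the ranges were 1.96 to 8.93 CPM in WT and 1.56 to 11.9 CPM in Chek2-/- ovaries, again with replicates 5 and 6 of the mutant lowest. With all 4 Chek2-/- libraries numbered 5 and 6 left out, the non-IR difference was 1.44 (edgeR adjusted p = 0.0138). That choice was made after seeing the values, and the replicates 6 are also those low in activated granulosa markers, whose part in the result was not tested.

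Hsd3b1 and Cyp17a1, the next steps, did not pass in any comparison. Hsd3b1 was at 333 ± 57.2 CPM in WT non-IR, 306 ± 53.0 CPM in WT IR, 341 ± 75.9 CPM in Chek2-/- non-IR and 335 ± 43.2 CPM in Chek2-/- IR ovaries (SD, n = 6 each). Its 95% interval for the WT response to IR was −0.40 to 0.16 on the log2 scale. Cyp17a1 was near the limit of detection, at 0.104 to 1.19 CPM over the 24 libraries. Its fold change with IR was −0.60 (SE 0.48) in WT and −0.61 (SE 0.44) in Chek2-/- ovaries, with 95% intervals of −1.59 to 0.39 and −1.53 to 0.30.

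At the estrogen end, Cyp19a1 (aromatase) lay at 1.61 ± 0.21 CPM in WT non-IR and 1.22 ± 0.41 CPM in Chek2-/- non-IR ovaries (SD, n = 6), a difference of −0.40 (SE 0.26, edgeR adjusted p = 0.391). Hsd17b1, which reduces estrone to estradiol, was at 49.4 ± 7.61 and 36.4 ± 10.9 CPM there (−0.44, SE 0.22, edgeR adjusted p = 0.250) and at 51.6 ± 7.26 and 38.0 ± 13.5 CPM under IR (−0.44, SE 0.22, edgeR adjusted p = 0.226). The lowest Hsd17b1 values, 17.4 and 15.1 CPM, were those of Chek2-/- replicates 6. With the mutant libraries 5 and 6 left out, again after seeing the values, Hsd17b1 was called lower in irradiated Chek2-/- ovaries (−0.39, edgeR adjusted p = 0.0381).

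Hsd17b7 had the smallest p of the members for IR. In WT its lowest, median and highest levels were 20.2, 24.2 and 26.3 CPM without and 26.1, 31.02 and 36.6 CPM with IR. Of the 6 irradiated WT libraries 5 lay above every non-irradiated one, and replicate 4 lay among them. The means were 23.9 ± 2.32 and 31.3 ± 4.17 CPM (SD, n = 6 each), a log2 fold change of 0.39 (SE 0.11), which missed the threshold at an edgeR adjusted p of 0.0625. DESeq2 gave an adjusted p of 0.0167 for it, and edgeR without WT IR replicate 4 an adjusted p of 0.0355. In Chek2-/- ovaries the levels were 25.8, 27.0 and 35.0 CPM without and 21.6, 24.8 and 36.8 CPM with IR, a change of −0.10 (SE 0.11). The difference between the responses was −0.49 (SE 0.15, edgeR adjusted p = 0.175). It passed without Chek2-/- IR replicate 6, the library at 36.8 CPM (−0.63, edgeR adjusted p = 0.0078). It also passed with both replicates 6 left out, after seeing the values (−0.55, edgeR adjusted p = 0.0105). With any other single library left out it did not pass (edgeR adjusted p up to 0.297). Between irradiated ovaries the Chek2-/- level was lower by 0.25 on the log2 scale (SE 0.11, with an edgeR adjusted p of 0.156). This too passed without Chek2-/- IR replicate 6 (edgeR adjusted p = 0.00841) and without no other single library (edgeR adjusted p up to 0.287).

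**Figure D2:**
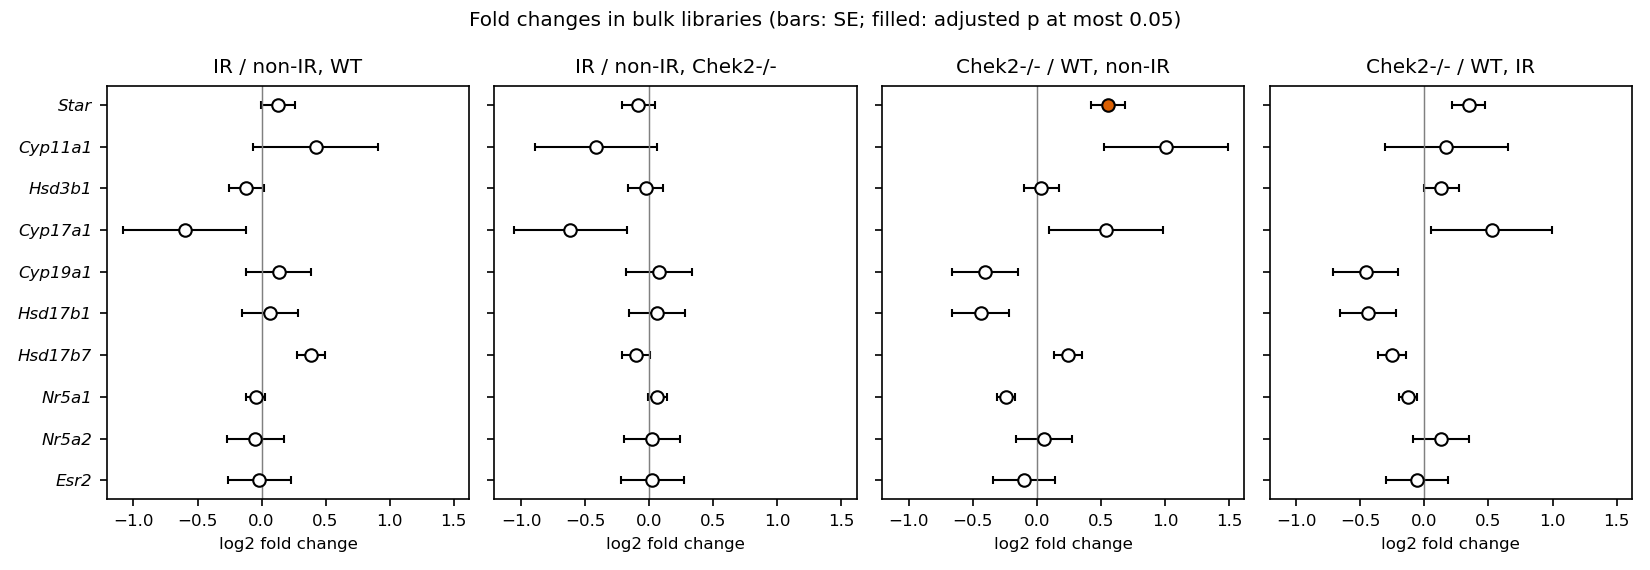
Log2 fold change of each member in 4 bulk comparisons, with bars of 1 SE, filled where the adjusted p was at most 0.05. The filled point is Star in Chek2-/- against WT non-IR ovaries (0.56), and the widest bars belong to Cyp11a1 and Cyp17a1.

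Of the factors that act on these genes, Nr5a1 was at 129 ± 12.8 CPM in WT non-IR and 109 ± 11.5 CPM in Chek2-/- non-IR ovaries (SD, n = 6). Its lowest, median and highest levels were 116, 130 and 142 CPM against 94.0, 108 and 126 CPM, so the groups overlapped. The fold change was −0.24 (SE 0.07, edgeR adjusted p = 0.0528), and DESeq2 gave an adjusted p of 0.0163. Under IR it was −0.13 (SE 0.07, edgeR adjusted p = 0.299). Of 9 markers of granulosa cells edgeR called 0 without and 0 with IR, 6 and 3 were at an unadjusted p under 0.05, DESeq2 called 3 and 1, and limma-voom 0 and 0. The sum of the 9 markers was 2417 to 2904 CPM in WT and 1872 to 2387 CPM in Chek2-/- non-IR libraries, which did not overlap, and 2266 to 2675 and 1793 to 2395 CPM under IR, which did (median log2 fold change of the 9 markers −0.27 and −0.22). The sum of 8 fibroblast markers was 5431 to 6472 and 4299 to 5289 CPM without IR, with 3 of 8 called lower. The part of these markers in the members' differences was not tested. Nr5a2 was at 294 ± 37.2 CPM in WT non-IR and 306 ± 111 CPM in Chek2-/- non-IR ovaries. The spread in the mutant came with replicates 6, at 136 and 138 CPM, while the other WT and mutant libraries were at 217 CPM or more. Esr2 had the same 2 low libraries, 40.3 and 40.6 CPM, and group means of 112 to 120 CPM. With all libraries the Nr5a2 change between non-IR genotypes was 0.06 and was not called. Leaving out mutant libraries 5 and 6 was chosen after seeing the values and removes the lowest Nr5a2 libraries from the mutant side alone. Nr5a2 was then called higher in Chek2-/- ovaries, by 0.34 without IR (edgeR adjusted p = 0.0403) and by 0.35 with IR (edgeR adjusted p = 0.0277).

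The other genes of the pathway were taken as 5 lists of 68 genes (cholesterol supply, electron donors, other steroid enzymes, regulators and hormone receptors). Of the 65 that could be tested, none passed in edgeR for IR in WT, for IR in Chek2-/- ovaries or for the difference in response. At an unadjusted p under 0.05 there were 6, 1 and 3 of them (9.23%, 1.54% and 4.62%), each share below the 11.4%, 4.40% and 9.14% of all genes. DESeq2 called 1 (Esr1), 0 and 0, and limma-voom called 0 in each. In non-irradiated Chek2-/- ovaries 3 of 12 cholesterol supply genes were lower, beside 2.22% lower and 3.12% higher over all genes (median over the list −0.16, beside 0.01 over all genes). Among them were Lipe, a lipase that frees stored cholesterol (13.3 to 10.0 CPM, −0.41, edgeR adjusted p = 0.00887), and Npc1, which exports cholesterol from lysosomes (104 to 89.6 CPM, −0.21, edgeR adjusted p = 0.0142). Of 19 other steroid enzymes tested 1 rose and 1 fell. Cyp1b1, which hydroxylates estrogens, rose from 107 to 139 CPM (0.38, edgeR adjusted p = 0.000726), and Hsd11b2, which inactivates glucocorticoids, fell from 135 to 90.4 CPM (−0.58, edgeR adjusted p = 0.0253). Of 18 regulators 3 were higher and none lower, among them Creb1, a factor of the cAMP response (0.22, edgeR adjusted p = 0.0274). No electron donor and no hormone receptor passed. The others, named after their values were seen, were Npc2 (−0.24, edgeR adjusted p = 0.0312), Cebpb (0.48, edgeR adjusted p = 0.0404) and Runx2 (0.45, edgeR adjusted p = 0.0479). In all edgeR called 8 of the 65 there, DESeq2 12 and limma-voom 9, beside 5.34%, 9.36% and 4.98% of all genes. Both alternatives also called the enzyme Srd5a1.

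Under IR the Chek2-/- ovaries again had more Cyp1b1 (0.34, edgeR adjusted p = 0.000458), and also more Esr1, the other estrogen receptor (67.4 to 94.3 CPM, 0.48, edgeR adjusted p = 0.00127), Runx2 (0.50, edgeR adjusted p = 0.0175) and Hsd17b4 (0.16, edgeR adjusted p = 0.0215). Cyb5a, an electron donor that aids Cyp17a1, was lower (109 to 89.4 CPM, −0.29, edgeR adjusted p = 0.00286). Beside 9.84% of all genes called (5.52% higher and 4.32% lower), 1 higher and 1 lower of 12 cholesterol supply genes, 1 lower of 6 electron donors, 3 higher and 1 lower of 19 enzymes, 1 higher of 18 regulators and 1 higher of 10 receptors were called. Those named after their values were seen were Stard4 (0.27, edgeR adjusted p = 0.0375), Npc2 (−0.21, edgeR adjusted p = 0.0397) and Hsd17b11 (−0.29, edgeR adjusted p = 0.0419). In all edgeR called 9 of 65 genes, DESeq2 12 and limma-voom 9, beside 9.84%, 12% and 9.61% of all genes. The limma-voom calls lacked Npc2 and Hsd17b11 and held Cyp11b1 and Cyp21a1 instead. Fshr and Lhcgr, the receptors of the gonadotropins, were at 2.52 and 1.29 CPM in WT non-IR ovaries, Nr0b1, a repressor of Nr5a1, at 7.45 CPM and Foxl2, a granulosa factor, at 83.7 CPM, and none of the 4 passed in any comparison. Of the Hsd3b genes that share sequence with Hsd3b1, Hsd3b3 lay at 0.0237 to 0.273 CPM and Hsd3b6 at 4.11 to 5.52 CPM as group means, and neither passed. Hsd3b2 was higher in irradiated Chek2-/- than WT ovaries (18.9 to 22.3 CPM, 0.24, edgeR adjusted p = 0.0349). Estimated counts may be split between such copies, and the Hsd3b values are uncertain to that extent.

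In single cells the classes were rebuilt by clustering with the members and the pathway lists kept out of the genes that formed the clusters, and are named as resembling a type by its markers. Granulosa-like cells were 13442 and fibroblast-like cells 18100, with 694 epithelial-like, 767 endothelial-like and 582 oocyte-like cells among the smaller classes. Levels are UMIs per 1000000 UMIs of the class (UMI CPM), a scale that counts molecules and does not depend on transcript length, given as mean ± SD over the 4 libraries. No library has a replicate, so the spread also holds the conditions. Among the named classes, 6 of the 10 members were highest in granulosa-like cells, and the range of each over the 4 libraries lay above that of the class with the next highest mean. For Nr5a1 the erythroid-like range (30.5 to 56.4) still overlapped the granulosa-like one (49.9 to 59.4). Of the other 4 members, Star was highest in epithelial-like cells in every library. Cyp11a1, Cyp17a1 and Hsd17b7 had no named class that was highest in all 4 libraries. Cyp11a1 was higher in fibroblast-like than in granulosa-like cells in both Chek2-/- libraries (15.7 against 6.95 and 33.5 against 5.73) and lower in both WT libraries (2.07 against 5.26 and 0.411 against 2.87). Cyp17a1 was higher in fibroblast-like cells in the Chek2-/- IR library alone (6.66 against 1.41). Hsd17b7 was clearly higher in oocyte-like than in granulosa-like cells in the WT IR library alone (37.7 against 22.7), with 14.9 against 20.1 in WT non-IR cells and 16.1 to 16.8 in both classes of the Chek2-/- libraries.

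**Figure D3:**
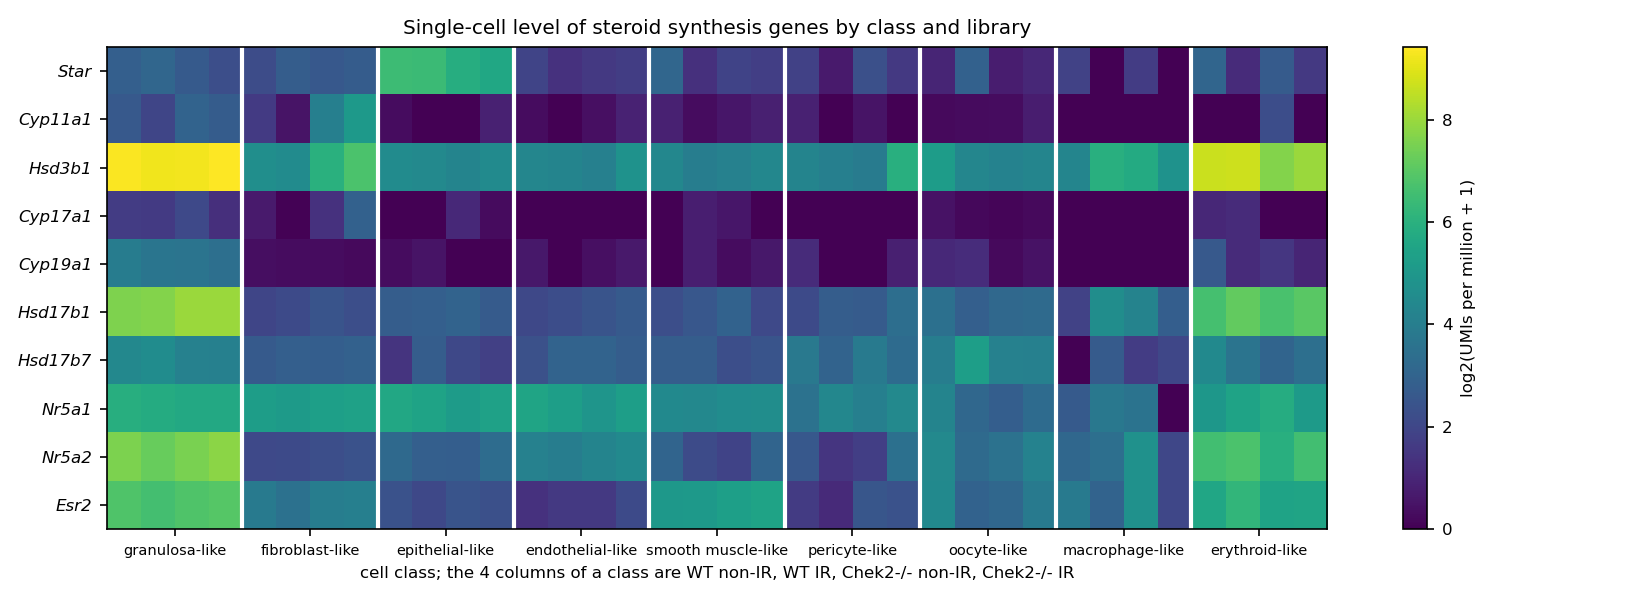
Level of each member, as log2(UMI CPM + 1), in 9 cell classes, with 4 columns per class for the 4 libraries in the order given under the axis. Hsd3b1, Hsd17b1, Nr5a2 and Esr2 are brightest in granulosa-like cells, Star in epithelial-like cells, and Cyp11a1 in the fibroblast-like cells of the 2 Chek2-/- libraries.

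Among the members of the granulosa-like group, Hsd3b1 was the most abundant at 637 ± 40.4 UMI CPM, against 54.1 ± 40.3 in fibroblast-like cells. Hsd17b1 followed at 228 ± 33.6, Nr5a2 at 186 ± 29.8, Esr2 at 111 ± 9.86, Nr5a1 at 53.7 ± 4.58 and Cyp19a1 at 11.8 ± 1.86. Aromatase was thus the scarcest of the 6. The erythroid-like class came second for Hsd3b1, Hsd17b1, Nr5a2, Esr2 and Cyp19a1, and it also carried granulosa markers at 0.329 of their highest cluster. To compare shares, cells were thinned to 5000 UMIs each. Hsd3b1 was then found in 64.6% of granulosa-like cells (80.5% unthinned) and in 6.30% of endothelial-like cells (26.6% unthinned). Median depths were 19315 to 22942 UMIs in the first and 11256 to 15013 UMIs in the second class. The Hsd3b1 shares in epithelial-like (6.39%) and pericyte-like cells (8.79%) were close to that background.

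Nr5a1 was less confined than its relative Nr5a2. It lay at 42.0 ± 6.01 UMI CPM in epithelial-like, 38.0 ± 2.98 in fibroblast-like and 37.3 ± 6.19 in endothelial-like cells, classes whose ranges overlapped, and at 7.20 ± 5.73 in macrophage-like cells. Thinned, 23.8% of granulosa-like, 20.7% of epithelial-like, 19.8% of endothelial-like and 1.69% of macrophage-like cells had a Nr5a1 UMI, shares that differ beyond counting error between macrophage-like cells and each of the others. Nr5a2 fell off from granulosa-like cells to 17.6 ± 2.73 UMI CPM in endothelial-like and 3.62 ± 0.46 in fibroblast-like cells. Esr2 had a second site in perivascular smooth muscle-like cells, at 36.9 ± 5.24 UMI CPM, above the range of fibroblast-like cells (13.7 ± 2.39).

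Star was at 87.5, 85.4, 57.2 and 48.5 UMI CPM in the epithelial-like cells of the WT non-IR, WT IR, Chek2-/- non-IR and Chek2-/- IR libraries. Both WT libraries were above both Chek2-/- libraries. Granulosa-like cells had 3.76 to 7.65 and fibroblast-like cells 3.54 to 5.90 UMI CPM. Thinned, 23.5% of epithelial-like cells (58.8% unthinned) and 0.300% of endothelial-like cells (3.13% unthinned) had a Star UMI. The ratio of Chek2-/- to WT in epithelial-like cells was 0.653 (exact 95% Poisson limits 0.555 to 0.768, which here and below cover counting error alone) without and 0.568 (0.486 to 0.661) with IR. Over whole libraries Star was at 6.22, 9.54, 6.13 and 5.24 UMI CPM in the same order. In fibroblast-like cells, which held 27.3% of Star UMIs, the ratio of Chek2-/- to WT was 1.42 (1.19 to 1.69) without and 0.970 (0.841 to 1.12) with IR. In granulosa-like cells it was 0.872 (0.761 to 0.998) and 0.492 (0.429 to 0.563). Without the cells of 5 or more Star UMIs (4 WT and 9 Chek2-/- fibroblast-like cells), left out after seeing the data, the ratio without IR was 1.17 (0.961 to 1.41) in fibroblast-like, 0.860 (0.670 to 1.11) in epithelial-like and 0.939 (0.801 to 1.10) in granulosa-like cells. With IR it was then 0.943 (0.781 to 1.14), 0.604 (0.471 to 0.770) and 0.551 (0.472 to 0.642). In epithelial-like cells without IR this rule left out 20 of 134 WT and 15 of 180 Chek2-/- cells. They held 68.6% and 42.1% of the Star UMIs of that class, so the rule took more of the signal from WT. With IR the cells left out there held 61.9% and 59.1%. Summed epithelial markers in bulk ranged over 598 to 784 CPM in WT non-IR and 464 to 1237 CPM in Chek2-/- non-IR libraries, and summed markers of adrenal cortex, a neighbouring steroid-making tissue, over 11.7 to 26.6 and 17.5 to 27.9 CPM. The adrenal enzyme Cyp11b1 was at 0 to 0.109 CPM over the 24 libraries. It and Cyp21a1, also adrenal, were called between irradiated genotypes by limma-voom and not by DESeq2. The part of either marker list in the Star result was not tested.

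The genes with the profile most like each member over 36 points (9 classes in 4 libraries), by Pearson's r among 16061 genes, were found as a description. The points of 1 library share its depth and its cells. They were 2900011O08Rik (0.91) and Cfap161 (0.90) for Star, Pak3 (0.94) and Hsd17b1 (0.94) for Hsd3b1, and Inha (0.98) and Amh (0.97), a subunit of inhibin and the anti-Müllerian hormone, for Hsd17b1. Nr5a2 was nearest to Inhbb (0.95) and Dhh (0.94), Esr2 to Ephx2 (0.94) and St3gal5 (0.94), Nr5a1 to Vsig10 (0.94) and Tmem238 (0.94), and Cyp19a1 to E330017L17Rik (0.92) and Sfrp4 (0.90). Hsd17b7 was nearest to Fdps (0.86) and Sqle (0.84), both enzymes of cholesterol synthesis. Cyp11a1 and Cyp17a1 were both nearest to Ibsp (0.90 and 0.80), followed by Lhcgr (0.82) for Cyp11a1 and by Cyp11a1 itself (0.76) for Cyp17a1.

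Cyp11a1 was held by very few cells. Of 36524 cells 128 had 5 or more Cyp11a1 UMIs, and these held 89.9% of its 5568 UMIs. They fell into 3 sets, 49 granulosa-like cells, 50 fibroblast-like cells and 28 cells of an unnamed cluster, with 1 cell of another unnamed cluster beside them. The threshold of 5 UMIs and the partner genes below, other than members, were chosen after values had been seen. Because so few cells carry the RNA, Poisson limits on a Cyp11a1 ratio are narrower than the sampling of cells would make them, and shares of cells are given instead.

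The 50 fibroblast-like cells were unevenly spread over the libraries, with 1 of 4850 in WT non-IR, 2 of 4772 in WT IR, 20 of 4307 in Chek2-/- non-IR and 27 of 4171 in Chek2-/- IR. The shares were 0.0206% (95% Clopper-Pearson limits 0.000522 to 0.115), 0.0419% (0.00508 to 0.151), 0.464% (0.284 to 0.716) and 0.647% (0.427 to 0.940). Both Chek2-/- shares lay above the limits of both WT shares, and these limits cover counting error only, with 4 pooled females behind each library. Of the 50 cells 36 were in a cluster led by Sct, Ass1 and Hhip, in which 5 of 8 theca markers were raised. The other 14 were in a dividing cluster with 4 of 8 raised, and the remaining fibroblast-like clusters had 3 of 8 each. The Sct cluster was itself 15.6% and 15.99% of the fibroblast-like cells in the WT libraries and 32.0% and 30.5% in the Chek2-/- libraries. All 50 cells had Hsd3b1, at 2955 UMI CPM against 32.7 in the remaining fibroblast-like cells, 30 had Star, 22 had Cyp17a1 and 0 of 50 had Cyp19a1. By a rule of 3 counts over 50 cells, looser in form than the Clopper-Pearson limits used elsewhere, that count allows a share of about 6% with a Cyp19a1 UMI. It sets no limit on cells that express the gene below detection.

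The same cells carried the receptor of luteinizing hormone. Lhcgr was found in 43 of the 50 and Insl3, a theca hormone, in 13, against 1.396% and 0.0332% of the other fibroblast-like cells. Nr5a1 was at 177 UMI CPM in them and at 36.9 in the others, and Dcn, a fibroblast marker, at 228 against 2009. Inha, a granulosa marker, was in 49 of the 50, at 256 against 33.6 UMI CPM, while Amh, another, was at 6.07 against 5.16. Fibroblast-like is thus the name of the clusters that held them. The 50 cells were also deeper, with a median of 35698.5 UMIs against 12088.5, so shares were compared after thinning. Thinned, Star was in 32.0% of them against 1.72%, Cyp17a1 in 34.0% against 0.0341% and Lhcgr in 38.0% against 0.426%. Inha was then in 64.0% against 15.5%, and Dcn in 46.0% against 98.5%. Cyp17a1 itself had 20 cells with 5 or more UMIs, of which 18 were fibroblast-like (1, 0, 5 and 12 in the order of libraries above), and all 18 also had Cyp11a1. 

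**Figure D4:**
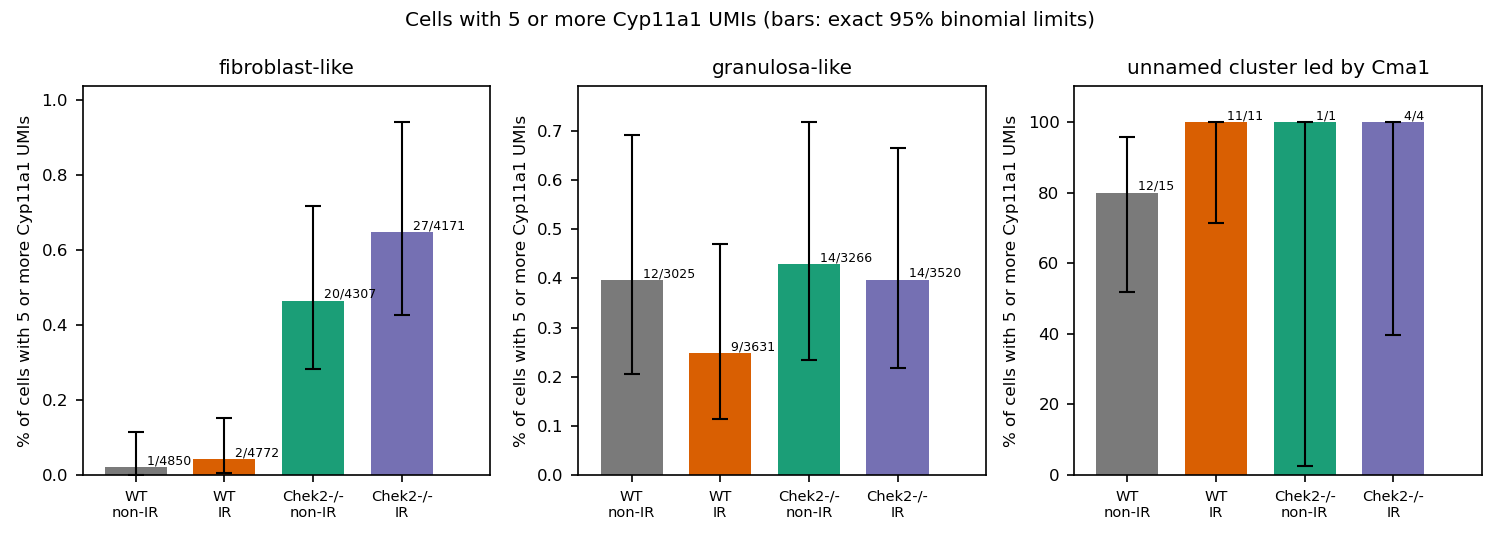
Percent of cells with 5 or more Cyp11a1 UMIs in each library, for 3 sets of cells with separate axes from 0, with exact 95% binomial limits and the counts of cells beside the bars. The fibroblast-like share is 0.464% and 0.647% in the Chek2-/- libraries and at most 0.0419% in the WT libraries, and the granulosa-like shares lie within each other's limits.

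The 49 granulosa-like cells with 5 or more Cyp11a1 UMIs were spread more evenly, with 12 of 3025, 9 of 3631, 14 of 3266 and 14 of 3520 in the same order. The shares were 0.397%, 0.248%, 0.429% and 0.398%, and their limits overlapped. Of these cells 28 were among the 973 cells of a cluster led by Akr1c18, an enzyme that breaks down progesterone, and Kitl, the ligand of the oocyte receptor Kit. They differed from the fibroblast-like set in some partners and shared others. Cyp19a1 was found in 33 of 49, or in 30.6% against 4.50% of the other granulosa-like cells after thinning, while Cyp17a1 was in 3. Lhcgr was in 16 of the 49, or in 12.2% against 0.535% after thinning. Star was also in 16, or in 10.2% against 2.49% after thinning, and Insl3 was in 2. Hsd17b7 was at 85.1 UMI CPM against 18.4, Hsd3b1 at 3278 against 621, and Amh, a marker of growing follicles, at 135 against 424. The 49 cells were deeper, with a median of 35856 UMIs against 20833. The Akr1c18 cluster as a whole was also high in Hsd3b1 and Hsd17b7 (below), and Cyp19a1 was in 10.7% of its cells after thinning. No comparison was made within that cluster.

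The remaining set was a cluster of 31 cells (15, 11, 1 and 4) led by Cma1, Tpsb2, Mcpt4 and Cpa3, proteases known from mast cells. Of these cells 28 had 5 or more Cyp11a1 UMIs, and the pooled level was 996 UMI CPM. Hsd3b1 was found in 8 of the 28, Star in 1, and Cyp17a1 and Lhcgr in none. The cluster stays unnamed, since no list of markers for it had been set, and its 28 cells of that kind had a median of 7477.5 UMIs. All 28 cells had Cma1 and Cpa3, which were found in at most 1 of the 49 granulosa-like and none of the 50 fibroblast-like cells with 5 or more Cyp11a1 UMIs.

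Within granulosa-like cells the members were unequal between clusters. In the Akr1c18 cluster Hsd3b1 was at 1564, 1532, 1667 and 1707 UMI CPM in the 4 libraries. It was at 776 to 830 in a cluster high in Amh, at 659 to 719 in a dividing cluster, and at 273, 260, 179 and 150 in a cluster led by Angptl6 and Fras1 and low in Amh. The 4 clusters kept this order in every library. Hsd17b7 was at 70.6 to 90.9 in the Akr1c18 cluster and at 7.73 to 21.7 in the others. Cyp19a1 was at 37.2, 24.7, 21.8 and 14.3 in the Akr1c18 cluster and at 1.99 to 3.33 in the Angptl6 cluster, and Nr5a1 was higher there, at 63.7 to 83.0 against at most 50.3 in the other 3 clusters. Cyp17a1 had its highest mean of the 4 clusters in the Angptl6 cluster as well (3.20 ± 1.67), with ranges that overlapped the others and 2 cells holding 76 of its 308 UMIs. The Akr1c18 cluster made up 9.45%, 8.92%, 5.63% and 5.09% and the Angptl6 cluster 35.0%, 45.2%, 39.1% and 26.8% of granulosa-like cells in the 4 libraries, so class totals mix unequal parts.

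In granulosa-like cells the IR to non-IR ratio of the 8 members other than Cyp11a1 and Cyp17a1 ran from 0.789 (Nr5a2) to 1.23 (Star) in WT and from 0.697 (Star) to 1.21 (Nr5a2) in Chek2-/- cells. The ratio of Cyp11a1 in WT was 0.546, and 1.02 (0.755 to 1.38) without the 12 and 9 cells with 5 or more of its UMIs. That of Cyp17a1 in Chek2-/- cells was 0.443, and 0.645 (0.508 to 0.819) without 2 cells of the non-IR library. Nr5a2 was at 0.789 in WT (95% Poisson limits 0.770 to 0.809) and 1.21 in Chek2-/- cells (1.18 to 1.23). Esr2 was at 0.866 and 1.07, and Hsd3b1 at 0.918 and 1.13. In bulk libraries the corresponding fold changes were under 0.13 in size on the log2 scale for these 3 genes and not called. In the Angptl6 cluster alone, WT Nr5a2 had a ratio of 0.687 (0.652 to 0.725), Esr2 of 0.721 (0.684 to 0.760) and Nr5a1 of 0.794 (0.746 to 0.845). There Star was at 1.73 (1.42 to 2.11) and Hsd17b7 at 2.05 (1.72 to 2.44). In Chek2-/- cells of the same cluster the ratios were 1.10, 1.03, 0.987, 0.633 and 0.922.

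In oocyte-like cells Hsd17b7 was higher in the WT IR than in the WT non-IR library, and the excess of Star there lay mostly in 3 cells. The Hsd17b7 level was 14.9 UMI CPM in WT non-IR and 37.7 in WT IR oocyte-like cells, from 430 and 504 UMIs, a ratio of 2.53 (95% Poisson limits 2.22 to 2.89). In Chek2-/- oocyte-like cells it was 16.8 and 16.1, a ratio of 0.958 (0.797 to 1.15). The WT IR level was above the level in each of the other 3 libraries, which lay between 14.9 and 16.8. With the 3 cells richest in Hsd17b7 left out of each library, a choice made after seeing the data, the WT ratio was 2.48 (2.15 to 2.86). Star was at 6.65 against 0.968 UMI CPM in WT IR and WT non-IR oocyte-like cells, from 89 and 28 UMIs (ratio 6.87, 4.45 to 10.9), with 1.58 (0.660 to 4.17) in Chek2-/- cells. However, 3 of the 171 WT IR cells held 61 of the 89 Star UMIs. Any Star UMI was found in 24 of 171 against 23 of 196 cells, at the unequal depths given below. With the 3 richest cells left out of each library the WT Star ratio was 2.84 (1.57 to 5.204) and the Chek2-/- ratio 2.39 (0.762 to 9.90). The depth of the cells differed, with a median of 181496 UMIs in WT non-IR, 14183 in WT IR, 159206 in Chek2-/- non-IR and 120516 in Chek2-/- IR oocyte-like cells. Among cells of at least 50000 UMIs (131, 51, 62 and 91 cells) the WT Hsd17b7 ratio was 2.60 (2.27 to 2.98), as large as without that limit. The Star ratio among them was 7.02, and 2.16 (1.08 to 4.29) without the 3 richest cells of each library. The epithelial-like cells had a WT ratio of 3.56 for Hsd17b7 (1.58 to 9.42), from 7 and 41 UMIs. Of the 6 members highest in granulosa-like cells 5 had WT ratios of 0.324 (Esr2) to 0.619 (Hsd17b1) in oocyte-like cells, and Cyp19a1 had 1.11 (0.582 to 2.06). In Chek2-/- oocyte-like cells the ratio was 1.45 (1.09 to 1.94) for Nr5a1, 1.59 (1.28 to 1.97) for Nr5a2 and 1.74 (1.36 to 2.24) for Esr2, and the limits of Hsd3b1, Hsd17b1 and Cyp19a1 included 1. The 5 lower WT ratios came from levels of 10.02 to 36.1 UMI CPM without and 6.20 to 19.1 with IR. The same genes were at 59.4 to 654 and 55.2 to 600 in WT granulosa-like cells. Hsd3b1 was at 36.1 and 19.1 in WT oocyte-like cells and at 19.02 and 18.05 in WT endothelial-like cells. Esr2 was at 21.0 and 6.80 against 1.54 and 1.96. RNA carried over from other cells was not tested as a source of these levels and ratios. Hsd3b6, a copy related to Hsd3b1, was at 17.6 to 20.3 UMI CPM in oocyte-like cells of the 4 libraries and under 0.5 in granulosa-, fibroblast- and epithelial-like cells.

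**Figure D5:**
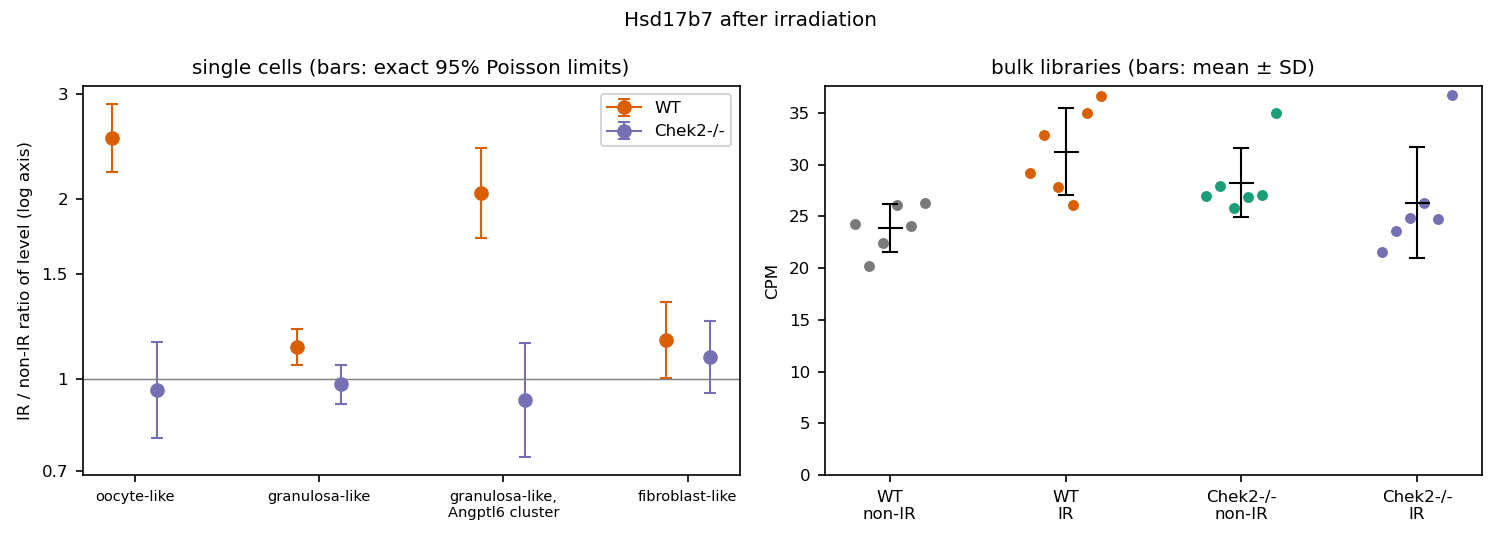
Left, the ratio of the irradiated to the non-irradiated Hsd17b7 level (log axis) in 3 cell classes and 1 granulosa-like cluster, for WT and Chek2-/- cells, with exact 95% Poisson limits. Right, Hsd17b7 in the 6 bulk libraries of each group (CPM, axis from 0) with the mean ± SD. The WT ratio is 2.53 in oocyte-like and 2.05 in Angptl6-cluster cells, and the Chek2-/- ratios of both lie under 1 with limits that include 1.

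The genotype differences in single cells did not follow the bulk order for every member. Star was called higher in Chek2-/- non-IR bulk ovaries (0.56), and was higher without being called with IR. Over whole single-cell libraries Star was at 6.22 UMI CPM in WT and 6.13 in Chek2-/- without IR. With IR it was at 9.54 in WT and 5.24 in Chek2-/-, the opposite order to bulk. Hsd17b1, lower in Chek2-/- bulk libraries by 0.44 on the log2 scale without being called, had a Chek2-/- to WT ratio of 1.32 (95% Poisson limits 1.29 to 1.35) without and 1.26 (1.24 to 1.29) with IR in granulosa-like cells. Nr5a1 had ratios of 0.843 (0.806 to 0.880) and 0.903 (0.866 to 0.942) there, beside bulk changes of −0.24 and −0.13. Over whole single-cell libraries, the closer match to bulk, Nr5a1 differed less. It was at 42.6 UMI CPM in WT and 40.7 in Chek2-/- without IR, and at 41.5 and 41.3 with IR. Cyp19a1 had granulosa-like ratios of 0.780 (0.712 to 0.855) and 0.855 (0.779 to 0.938), beside bulk changes of −0.40 and −0.46. Over whole single-cell libraries Hsd17b1 was again higher and Cyp19a1 again lower in Chek2-/-, without and with IR. Cyp11a1 over whole single-cell libraries was at 4.14, 2.11, 9.28 and 15.0 UMI CPM, and bulk medians in the same order were 3.53, 3.78, 7.29 and 5.03 CPM. The unnamed Cma1 cluster held 225 of 769 Cyp11a1 UMIs in the WT non-IR library and 117 of 376 in WT IR. It held 5 of 1551 in Chek2-/- non-IR and 50 of 2872 in Chek2-/- IR. Each of these ratios compares 2 libraries, and the spread between females cannot be read from them.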

How the data were processed

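Members and lists were chosen with earlier results of these data known. Salmon 1.3.0, run by the authors within nf-core/rnaseq on Ensembl transcripts, gave the deposited bulk table of estimated counts, unscaled between libraries. Here they were rounded, genes under 10 counts in all were left out, and edgeR 4.0.16 (R 4.3.3) was fitted over the 24 libraries with TMM and 1 coefficient per group. Calls had a Benjamini-Hochberg adjusted p of at most 0.05. DESeq2 1.42.0 and limma-voom (3.58.1) were alternatives. For single cells the authors deposited whole counts of UMIs from Cell Ranger on mm10. They held 9488 to 11053 barcodes per library, before the filters on genes and on mitochondrial and ribosomal UMIs given below. The labels name the build mm10 for bulk counts too. Cells under 1000 genes, over 20% mitochondrial or over 50% ribosomal UMIs, genes in under 3 cells, and 4.02% to 5.47% of cells called doublets by Scrublet (scanpy 1.11.5) were left out. Clustering used 2000 variable genes, 30 components, 15 neighbours and Leiden resolution 0.5, without Harmony. A cluster was named where at least 60% and 3 or more of a list's markers were in 25% of its cells and 2-fold over the median cluster, at a list level of at least 0.4 of the highest cluster, with any other list under 0.8 of that. These limits were set with results known and left 94, 52, 42 and 35 cells unnamed (WT non-IR, WT IR, Chek2-/- non-IR and IR). Shares carry Clopper-Pearson and ratios exact Poisson limits at 95%. Scripts were tested on simulated data. Beside the members the text names, per comparison, the 5 pathway genes with the smallest adjusted p among those called, Fshr, Lhcgr, Nr0b1, Foxl2, the Hsd3b copies, 2 genes most alike each member, Chek2 and Cdkn1a. Other genes were named after their values were seen. Columns of every sample were mapped, and alternatives are listed in the closing section.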

Additional observations from a re-analysis of the deposited data

Results flagged for a closer look

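In 4 of 40 sets of 6 libraries (10 genes in 4 groups) 1 library lay far from the rest, by a gap beyond Dixon's 95% limit for its share of the range, where chance gives about 1 in 20. Hsd17b7 was at 35.0 CPM in Chek2-/- non-IR replicate 6 and at 36.8 CPM in Chek2-/- IR replicate 6, the highest of both groups. Cyp19a1 was at 0.417 CPM in Chek2-/- IR replicate 6, the lowest of its group. Star was at 15.6 CPM in Chek2-/- non-IR replicate 3, the lowest of its group, and the Star difference between non-IR genotypes was 0.64 (edgeR adjusted p = 0.00574) without it. Both replicates 6 are the libraries that stand apart in markers of activated granulosa cells and oocytes. The part of those markers in these values was not tested.

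Cyp11a1 was at 996 UMI CPM in the unnamed cluster of 31 cells led by Cma1. No comparison of named classes uses this cluster, and the whole-library levels include it.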

How the results depend on the processing

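The count of members called moved with the settings, and the cause was not tested. For WT IR it was 0, and 1 (Hsd17b7) with DESeq2, RLE size factors, edgeR's filterByExpr, the replicate block and the block within the genotype alone, and 0 to 1 with each library left out. For the difference in response it was 0, and 1 (Hsd17b7) with the replicate block and without both Chek2-/- replicates 6 or all 4 replicates 5 and 6, and 0 to 1 with each library left out. For Chek2-/- against WT non-IR it was 1, and 2 (Star and Nr5a1) with DESeq2, RLE, filterByExpr or without both replicates 6, 4 without replicates 5 and 6 (Cyp11a1 and Nr5a2 added), 0 where a 2-fold change was also asked, and 1 to 2 with each library left out. For Chek2-/- against WT IR it was 0, and 1 (Hsd17b7) with the replicate block or without both replicates 6, 3 without replicates 5 and 6 (Hsd17b7, Hsd17b1 and Nr5a2), and 0 to 1 with each library left out. Over all genes the share called moved too. Without replicates 5 and 6 it was 10.5% without and 14.1% with IR, beside 5.34% and 9.84% with all libraries, and without both replicates 6 it was 7.09% and 12.6%. For non-IR ovaries it was 9.36% with DESeq2, 5.43% with RLE, 9.28% with filterByExpr and 0.788% with the 2-fold change. With the replicate block it was 2.47% for WT IR, 281 of 26790 genes for the difference in response and 11.7% for Chek2-/- against WT IR. For WT IR it was 3.05% with DESeq2, 2.37% with RLE, 3.34% with filterByExpr and 3.03% with the block within the genotype. The difference in response had 1.31% without both replicates 6 and 1.01% without replicates 5 and 6. With each library left out the share was 1.94% to 2.46% for WT IR and 0.828% to 1.21% for the difference in response. It was 2.15% to 6.73% between non-IR and 6.78% to 10.1% between irradiated genotypes. The libraries that decided a count were WT IR replicate 4 (Hsd17b7), Chek2-/- IR replicate 6 (Hsd17b7, also for the difference in response), WT IR replicate 6 (Star), and WT non-IR replicates 5 and 6 and Chek2-/- non-IR replicate 5 (Nr5a1). Star in non-IR ovaries kept its call with each library left out (0.51 to 0.64). No label says that replicate numbers pair libraries. Same-number correlations of deviations from the group means were 0.0478 to 0.496 between the WT groups and 0.0917 to 0.796 between the Chek2-/- groups. Between genotypes they ran from −0.16 to 0.328. Within a genotype Chek2-/- replicates 3 to 6 and WT replicate 5 correlated best with their own number, and the others did not. The replicate block moved Hsd17b7 in WT to 0.38 (edgeR adjusted p = 0.00689), its difference in response to −0.50 (0.0267) and Chek2-/- against WT IR to −0.26 (0.0330). Leaving out replicates 5 and 6, the block within a genotype, the limit on oocyte-like depth and leaving out the cells richest in a gene were chosen after seeing the data.

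Cyp11a1 in Chek2-/- against WT IR ran from −0.22 (without Chek2-/- IR replicate 3) to 0.43. Of 40 other fold changes 17 changed sign in some setting, and the largest of these was 0.524 in size. In single cells 0 of 56 levels moved by more than 1 SD over the 4 libraries, which are different conditions. In fibroblast-like cells that SD exceeded the mean for Cyp11a1 (15.3 against 12.9) and Cyp17a1 (3.03 against 2.21). A fall to 0 there would not have counted as moved. Of 80 ratios 5 moved beyond their Poisson limits, and the Chek2-/- granulosa-like ratio of Cyp11a1 was 1.06 as a mean over cells (0.824 as summed). Without cells of 5 or more Cyp11a1 UMIs the WT ratio was 1.02 (0.546 with them). Without cells of 5 or more Star UMIs the ratio of Chek2-/- to WT without IR was 1.17 in fibroblast-like (1.42 with them) and 0.860 in epithelial-like cells (0.653 with them). In epithelial-like cells those left out held 68.6% of the WT and 42.1% of the Chek2-/- Star UMIs. Without the 3 richest cells of each library the WT oocyte-like ratio of Star was 2.84 (6.87 with them). The highest named class changed to granulosa-like at resolution 1.0 for Cyp11a1 and Cyp17a1, where unnamed clusters held 4.24 to 55.1 UMI CPM of Cyp11a1 and 0.0614 to 10.8 UMI CPM of Cyp17a1 over the 4 libraries, and for Cyp17a1 also as a mean over cells. A mean over cells has no Poisson limits of its own. Its ratios are among the 80 and were set against the limits of the summed ratios. Depth limits Cyp17a1, at under 1.2 CPM, and each single-cell condition has 1 library.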
